A study of Mus musculus with 12 samples.

Results

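The genes Ecm1, Reln, Lrat, Dcn, Col1a1, Col1a2, Col3a1, Des, Colec11 and Hgf, were followed as markers of hepatic stellate cells and fibroblasts in mouse liver. All were chosen by name, with earlier results of these data known, and they make up 10 of the 23909 genes in the table. Counts of the 10 genes set beside shares of all genes are therefore descriptions and not tests. RNA sequencing covered 12 liver libraries of C57BL/6 mice in 4 groups of 3. Mice from Jackson (JAX) lived with other Jackson mice, mice from Taconic (TAC) lived with other Taconic mice, CoJAX were Jackson mice housed with Taconic mice, and CoTAC were Taconic mice housed with Jackson mice. Livers were taken after 4 weeks of that housing. The labels give no age, sex, cage or animal number, and do not say that the libraries of a group came from separate animals, and every p-value below therefore reflects only how these libraries spread, which may be technical. Values are RPKM, reads scaled by gene length and by mapped reads, and are therefore comparable between genes as levels per length.

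Hepatic stellate cells lie between the hepatocytes and the endothelium of the liver sinusoids, where they store vitamin A as retinyl esters. In injured liver they can become contractile, matrix-producing cells, and together with portal fibroblasts they are known as the main source of fibrillar collagen. They also secrete growth factors and lectins that act on their neighbours. In whole liver these cells are a minority beside hepatocytes, and in such bulk samples fewer cells of a type and less RNA per cell cannot be told apart.

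Promoter sequence is shown for 4 genes whose levels carry the results below, to set the stretch before the start of a matrix gene that stood lowest in CoTAC (Ecm1) beside those of 2 fibrillar collagen genes (Col3a1, Col1a2) and of the retinyl ester gene Lrat, which followed another order of groups. Each is the 150 bases before the gene start in RefSeq, build GRCm38.p6, written 5′ to 3′ on the gene's strand. Capitals mark, on either strand, the CCAAT box, the TATAA element, the GC box with the letters GGGCGG, and the letters TGANTCA of the AP-1 site. Before Col3a1 the TATAA matches of both strands overlap.
Ecm1 (chr3:95739570-95739719, minus strand): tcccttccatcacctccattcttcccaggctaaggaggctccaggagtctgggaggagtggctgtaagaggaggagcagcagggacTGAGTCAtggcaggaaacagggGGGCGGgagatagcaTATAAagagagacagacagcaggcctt
Col3a1 (chr1:45311388-45311537, plus strand): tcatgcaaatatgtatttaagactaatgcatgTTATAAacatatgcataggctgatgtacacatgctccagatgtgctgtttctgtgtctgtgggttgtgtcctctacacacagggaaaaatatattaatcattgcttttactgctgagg
Col1a2 (chr6:4505468-4505617, plus strand): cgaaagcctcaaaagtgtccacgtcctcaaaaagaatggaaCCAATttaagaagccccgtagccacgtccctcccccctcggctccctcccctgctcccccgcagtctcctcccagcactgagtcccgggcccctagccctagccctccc
Lrat (chr3:82903975-82904124, minus strand): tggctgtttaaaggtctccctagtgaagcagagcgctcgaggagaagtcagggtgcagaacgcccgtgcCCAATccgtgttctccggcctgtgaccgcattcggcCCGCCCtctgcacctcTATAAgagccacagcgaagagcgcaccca
Of the 10 genes, 8 had an entry in the RefSeq promoter table, and Dcn and Col1a1 had none. TATAA was found before Ecm1, Col3a1 and Lrat, CCAAT before Col1a2 and Lrat, and TGANTCA before Ecm1. Over 32851 mouse promoter windows of that length, TATAA stood in 14.2%, CCAAT in 24.5%, GGGCGG in 28.6% and TGANTCA in 4.24%. A match describes the letters of the window and says nothing of which factor is bound there.

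All 10 genes passed the filter of at least 1 RPKM in at least 3 libraries, which left 12058 genes. Their levels per length spanned a wide range. Ecm1, a secreted matrix glycoprotein, had the highest median over the 12 libraries at 102 RPKM, rank 1460 of the genes tested. Dcn, which encodes the small proteoglycan decorin that binds collagen fibrils, had a median of 88.7 RPKM, and Colec11, a secreted lectin that activates complement, one of 45.7 RPKM. The other 7 lay at medians of 1.82 RPKM (Hgf) to 6.78 RPKM (Col3a1). The hepatocyte gene Alb fell in RPKM with each step up in library depth, from 1151.6 RPKM in JAX 3, the shallowest library, to 511.5 RPKM in CoJAX 3, the deepest. The highest share of Alb, 24.0% for Ecm1, was in that deepest library, so shares of Alb are no measure of abundance here. The cause was not tested.

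Precision was limited at those low levels. Reading whole reads back from the steps between RPKM values gave 1500000 to 3730000 reads per library on genes, a 2.48-fold spread in depth. Depth moved with the groups: JAX libraries stood at 0.7581 to 1 of the first JAX library's depth and CoTAC libraries at 1.59 to 1.84. Des rested on 11 to 53 reads and Col1a1 on 11 to 48 reads per library, so that the 95% Poisson interval of the 11 Des reads of CoTAC 3 ran from 5.5 to 19.7 reads. Such intervals cover counting error only. A second trend also moved with the groups, since the slope of log2 RPKM on gene length was -0.156 to -0.138 per doubling of length in JAX and 0.136 to 0.171 in CoTAC.

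The 3 fibrillar collagen genes encode chains of type I collagen (Col1a1, Col1a2) and type III collagen (Col3a1). Col3a1 stood at 11.5, 10.5 and 12 RPKM in JAX 1 to 3, at 6.83, 8.90 and 6.73 RPKM in TAC, at 6.73, 5.22 and 7.70 RPKM in CoJAX and at 4.17, 5.71 and 5.04 RPKM in CoTAC. Every JAX library lay above every library of the other 3 groups, while TAC overlapped CoJAX and CoJAX overlapped CoTAC. Col1a2 was at 6.26, 4.68 and 7.03 RPKM in JAX, 3.06, 5.76 and 2.56 RPKM in TAC, 3.35, 3.90 and 5.27 RPKM in CoJAX and 2.46, 3.40 and 2.94 RPKM in CoTAC. Here 1 TAC and 1 CoJAX library reached into the JAX range, and only CoTAC lay wholly below JAX. Col1a1 was at 3.59, 3.09 and 4.06 RPKM in JAX, 1.42, 2.53 and 1.93 RPKM in TAC, 2.36, 1.78 and 2.08 RPKM in CoJAX and 2.15, 1.79 and 3.10 RPKM in CoTAC. JAX lay above TAC and CoJAX without overlap, but 1 CoTAC library reached the JAX range, and unlike the other collagens Col1a1 did not have its lowest mean in CoTAC.

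The matrix genes Ecm1 and Dcn were the most abundant of the 10. Ecm1 stood at 151.6, 163.1 and 169.9 RPKM in JAX, 93.5, 113.7 and 67.8 RPKM in TAC, 111.4, 78.7 and 123.0 RPKM in CoJAX and 39.5, 75.3 and 53.9 RPKM in CoTAC. JAX lay above all other libraries, CoTAC lay wholly below CoJAX, and TAC overlapped both cohoused groups. Dcn was at 105.9, 122.3 and 110.8 RPKM in JAX, 74.4, 109.8 and 54.2 RPKM in TAC, 115.3, 68.3 and 103.1 RPKM in CoJAX and 46.4, 72.3 and 59.1 RPKM in CoTAC. Dcn kept the same order of group means as Ecm1, but only CoTAC lay wholly below JAX. Des, which encodes the intermediate filament protein desmin of stellate and muscle cells, was at 4.36, 7.28 and 5.11 RPKM in JAX, 3.45, 1.99 and 2.67 RPKM in TAC, 2.82, 2.29 and 4.55 RPKM in CoJAX and 1.35, 2.54 and 1.12 RPKM in CoTAC. TAC and CoTAC lay wholly below JAX and CoJAX did not.

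Lrat, which encodes the enzyme that forms retinyl esters for storage, followed another order. It was at 2.69, 4.72 and 3.79 RPKM in JAX, 3.84, 4.6 and 3.27 RPKM in TAC, 6.68, 3.32 and 7.50 RPKM in CoJAX and 2.31, 4.00 and 1.69 RPKM in CoTAC. CoJAX had the highest mean, and the groups overlapped throughout. Among the secreted signals, Reln, which encodes the large glycoprotein reelin, was at 3.97, 4.42 and 4.29 RPKM in JAX, 2.12, 3.92 and 2.29 RPKM in TAC, 4.43, 4.21 and 5.58 RPKM in CoJAX and 2.14, 4.52 and 2.32 RPKM in CoTAC. All TAC values lay below JAX, and CoTAC 2 alone of the CoTAC libraries stood above JAX. Colec11 was at 62.0, 76.7 and 48.1 RPKM in JAX, 41.0, 58.1 and 32.0 RPKM in TAC, 49.4, 38.3 and 60.2 RPKM in CoJAX and 22.5, 43.3 and 32.3 RPKM in CoTAC, with CoTAC wholly below JAX. Hgf, which encodes hepatocyte growth factor, was at 1.13, 1.66 and 0.25 RPKM in JAX, 0.715, 2.35 and 1.99 RPKM in TAC, 3.09, 2.1 and 2.90 RPKM in CoJAX and 0.742, 3.07 and 0.833 RPKM in CoTAC. CoJAX lay above JAX without overlap, and the CoTAC libraries alone spanned all 4 group means. The lowest Hgf values lay below the 1 RPKM of the filter, and every difference of Hgf given below rests in part on them.

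**Figure D1:**
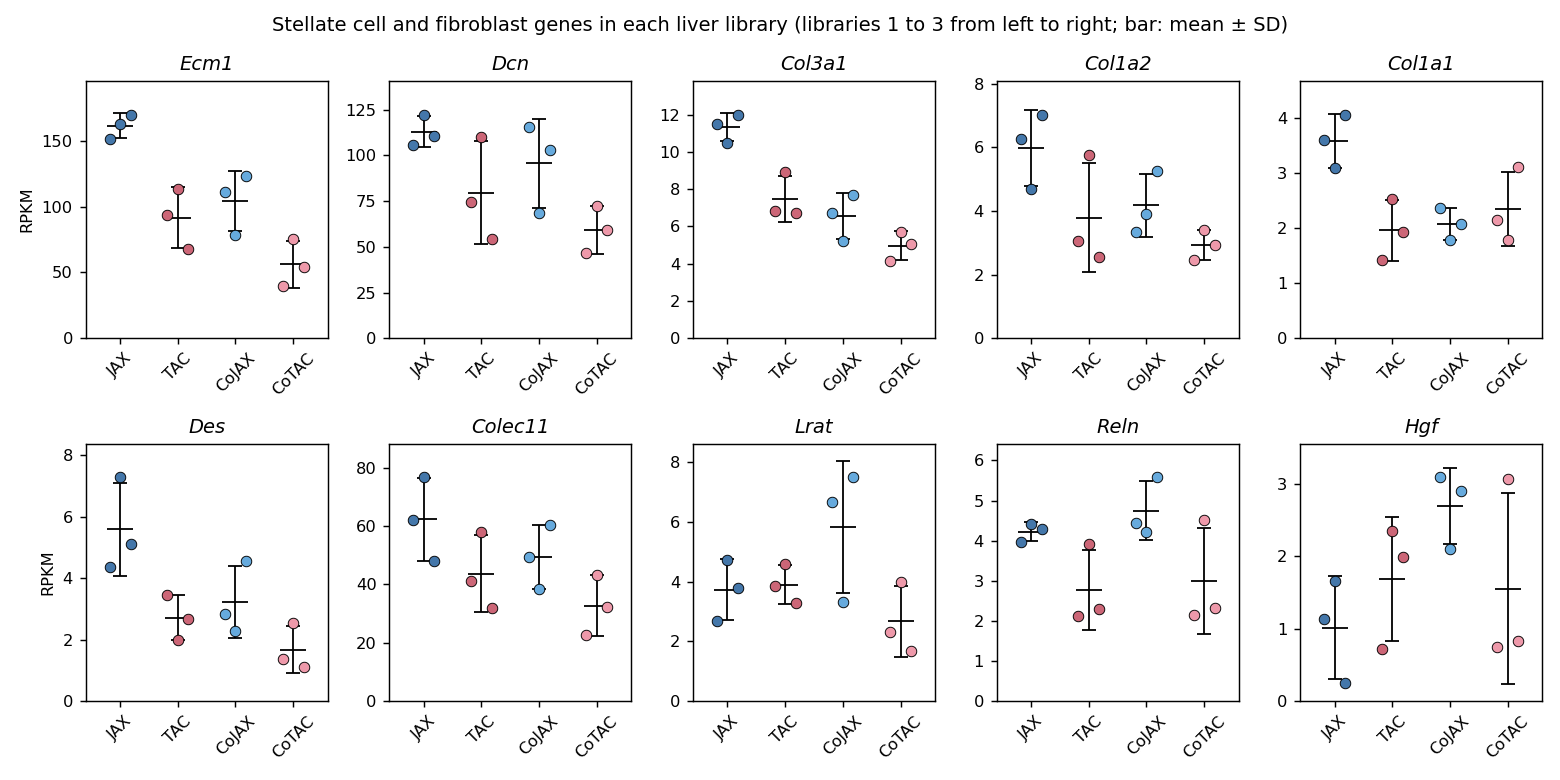
RPKM of each of the 10 genes (vertical axis, starting at 0, with its own scale in each panel) in the 3 libraries of each group, with the group mean and SD as a bar. JAX is the highest group for 7 genes, and for Ecm1 and Col3a1 its 3 libraries stand above all 9 others.

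In the plot of RPKM by library, JAX had the highest group mean for 7 of the 10 genes, and CoTAC the lowest for 7, against 38.8% and 33.4% of all tested genes. Both held for 6 genes (Ecm1, Dcn, Col1a2, Col3a1, Des and Colec11), against 24.9% of all tested genes. For these same 6 genes every CoTAC library lay below every JAX library, an outcome seen in that direction for 26.8% of all tested genes. CoJAX had the highest mean for Lrat, Reln and Hgf. Neighbouring groups in the order overlapped for every gene, except JAX and the group next to it for Ecm1 and Col3a1.

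Housed apart, Taconic livers showed negative log2 differences from Jackson livers for 8 of the 10 genes (51% of all genes tested), with a median of -0.57 beside -0.01 for all genes, but none passed the test. The test was limma-trend on log2(RPKM + 0.5), a scale that understates differences of low genes, with p-values adjusted over the 12058 genes and a threshold of 0.05. By that test 0 of 10 genes were called, against 4.09% of all genes in either direction, and 6 of 10 were lower and 0 higher at an unadjusted p under 0.05, against 12.7% of all genes lower. The difference was -0.84 ± 0.24 (SE) for Ecm1, with means of 91.7 ± 23.0 RPKM in TAC and 162 ± 9.24 RPKM in JAX (SD, n = 3 each; adjusted p = 0.0666 by limma). It was -0.92 ± 0.31 for Des (adjusted p = 0.0964), -0.75 ± 0.24 for Col1a1 (0.0864) and -0.57 ± 0.18 for Col3a1 (0.0819). The groups did not overlap, TAC being lower, for 5 genes (Ecm1, Reln, Col1a1, Col3a1 and Des), against 11.8% of all genes. The 2 positive differences were 0.08 ± 0.33 for Lrat and 0.57 ± 0.49 for Hgf. Without CoTAC 2, which enters through the shared estimate of spread, Ecm1 passed at an adjusted p of 0.0475.

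Among Jackson mice, cohousing with Taconic mice went with lower Col3a1. Its mean was 6.55 ± 1.25 RPKM in CoJAX and 11.3 ± 0.798 RPKM in JAX (SD, n = 3 each), and it fell by 0.76 ± 0.18 on the log2 scale, 1.69-fold (adjusted p = 0.0138 by limma). Every CoJAX library was below every JAX library. It was the 1 of 10 genes called, against 24.1% of all genes in either direction and 11.5% lower, so the share of the 10 genes called was below that of all genes. At an unadjusted p under 0.05, 4 of the 10 were lower and 1 higher, against 19.2% of all genes lower, and 7 of 10 differences were negative, against 50.9%. Without CoJAX 2 the difference was -0.62 with an adjusted p of 0.0545, and with depth as a covariate it was -0.82 with an adjusted p of 0.0883. Ecm1 and Col1a1 were also lower without overlap, by values that did not pass, namely -0.65 ± 0.24 (adjusted p = 0.0681) and -0.67 ± 0.24 (adjusted p = 0.0635). In all 3 genes were lower without overlap and 1, Hgf, was higher, against 21.9% and 21.8% of all genes. Hgf had a difference of 1.19 ± 0.49 (adjusted p = 0.0945), and Lrat one of 0.54 ± 0.33 (adjusted p = 0.248). Ecm1 passed without CoTAC 1 (adjusted p = 0.0491) or CoTAC 2 (0.0441), and Col1a1 passed without TAC 1 (0.0472). This comparison shares its JAX libraries with the one between vendors housed apart, so the 2 sets of differences are not independent.

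Among Taconic mice, cohousing with Jackson mice gave no called gene, 0 of 10 by limma against 0.647% of all genes, and 2 genes (Ecm1 and Col3a1) were lower at an unadjusted p under 0.05, against 12.6%. The median difference of the 10 genes was -0.40, with 8 of 10 negative, against 50.3% of all genes. Ecm1 averaged 56.2 ± 18 RPKM in CoTAC and 91.7 ± 23.0 RPKM in TAC (SD, n = 3 each), a difference of -0.72 ± 0.24 (adjusted p = 0.127), and passed without TAC 3 (adjusted p = 0.0376). Col3a1 differed by -0.54 ± 0.18 (adjusted p = 0.124) and was the only one of the 10 genes whose groups did not overlap, against 12.2% of all genes with CoTAC lower. Reln and Col1a1 had small positive differences of 0.07 ± 0.27 and 0.21 ± 0.24.

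Between the cohoused vendors, CoTAC against CoJAX, 0 of 10 genes were called by limma against 0.0663% of all genes, and 6 were lower at an unadjusted p under 0.05, against 6.11%. The median difference was -0.66 beside 0.01 for all genes, and 9 of 10 were negative, against 48.9% of all genes. Lrat differed by -1.0 ± 0.33 (adjusted p = 0.356) and Ecm1 by -0.91 ± 0.24 (adjusted p = 0.239). Ecm1 was the 1 gene whose groups did not overlap, against 9.94% of all genes with CoTAC lower, and it passed without CoTAC 2 (adjusted p = 0.0361). Col1a1 alone was positive, at 0.13 ± 0.24.

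Averaged over both kinds of housing, Ecm1 was lower in Taconic than in Jackson livers. It fell by 0.88 ± 0.17 on the log2 scale, 1.84-fold (adjusted p = 0.0284 by limma), and was the 1 of 10 genes called, against 3.47% of all genes in either direction and 1.93% lower. All 10 genes had negative averages, against 48.9% of all genes, with a median of -0.55 beside 0.01 for all genes, and 7 of 10 were lower at an unadjusted p under 0.05, against 14.1% of all genes. Next in size were Des at -0.85 ± 0.22 (adjusted p = 0.0543), Dcn at -0.62 ± 0.18 (adjusted p = 0.0719) and Reln at -0.60 ± 0.19 (adjusted p = 0.0879). Hgf had the smallest average, -0.12 ± 0.35.

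The call of Ecm1 was near the threshold. It was lost with depth as a covariate (-0.82, adjusted p = 0.102) and with replicate number as a block (-0.88, adjusted p = 0.059). It was also lost in each fit without JAX 2, JAX 3, TAC 3, CoJAX 1, CoJAX 3, CoTAC 1 or CoTAC 3, with differences of -0.87 to -0.76 and adjusted p of 0.0547 to 0.0772. Without CoTAC 2, 5 of the 10 genes were called, Ecm1, Reln, Dcn, Col3a1 and Des. Des was added without TAC 1 (adjusted p = 0.0248) and Col3a1 without CoJAX 2 (adjusted p = 0.0481).

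Whether the vendor difference itself depended on housing was asked with an interaction term. By limma 0 of 10 genes were called, as were 0 of all genes, while 1 gene was lower and 1 higher at an unadjusted p under 0.05, against 11.3% of all genes in either direction. Those were Lrat at -1.07 ± 0.47 (adjusted p = 0.415) and Col1a1 at 0.87 ± 0.34 (adjusted p = 0.371). Hgf had the largest value, -1.38 ± 0.70, with an adjusted p of 0.478.

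**Figure D2:**
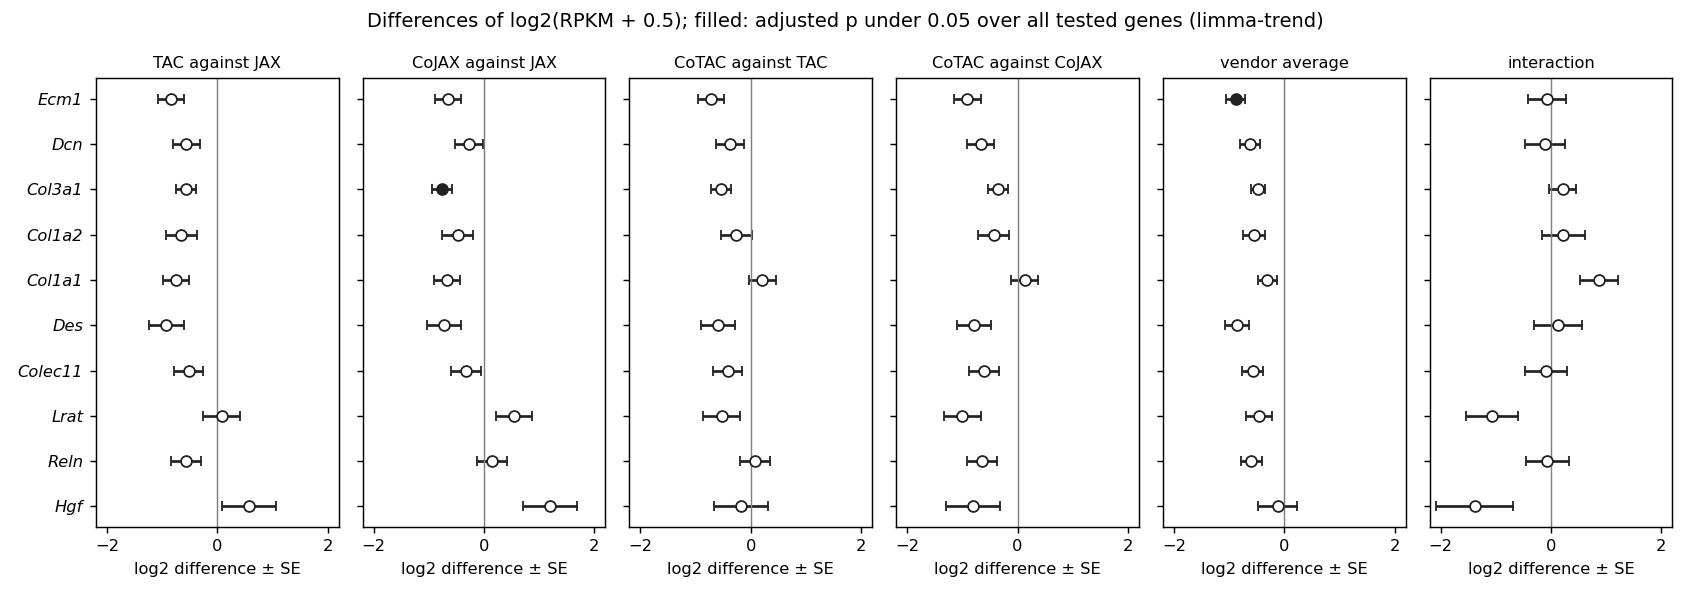
Log2 difference with its standard error (horizontal axis) for the 10 genes in each of the 4 group comparisons, in the vendor average over both kinds of housing and in the interaction of vendor and housing. The filled points, Col3a1 in CoJAX against JAX and Ecm1 in the vendor average, passed at an adjusted p under 0.05.

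Libraries of a group differed from each other in a pattern that most of the 10 genes shared, as the map of their profiles shows. TAC 2 was the highest TAC library for 9 of the 10 genes (26.7% of all tested genes), with Des the exception. CoTAC 2 was the highest CoTAC library for 9 (32.1%), with Col1a1 the exception. CoJAX 2 was the lowest CoJAX library for 9 (31.8%), with Col1a2 the exception, and CoJAX 3 the highest for 7 (29.1%). These libraries were singled out after their values were seen. The spread within JAX differed between genes, with a coefficient of variation from 5.46% for Reln to 70.2% for Hgf. It was smaller than in TAC for Ecm1 (5.72% against 25%) and Dcn (7.45% against 35.4%), close for Des (27.2% against 27.1%) and larger for Lrat (27.2% against 17%).

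**Figure D3:**
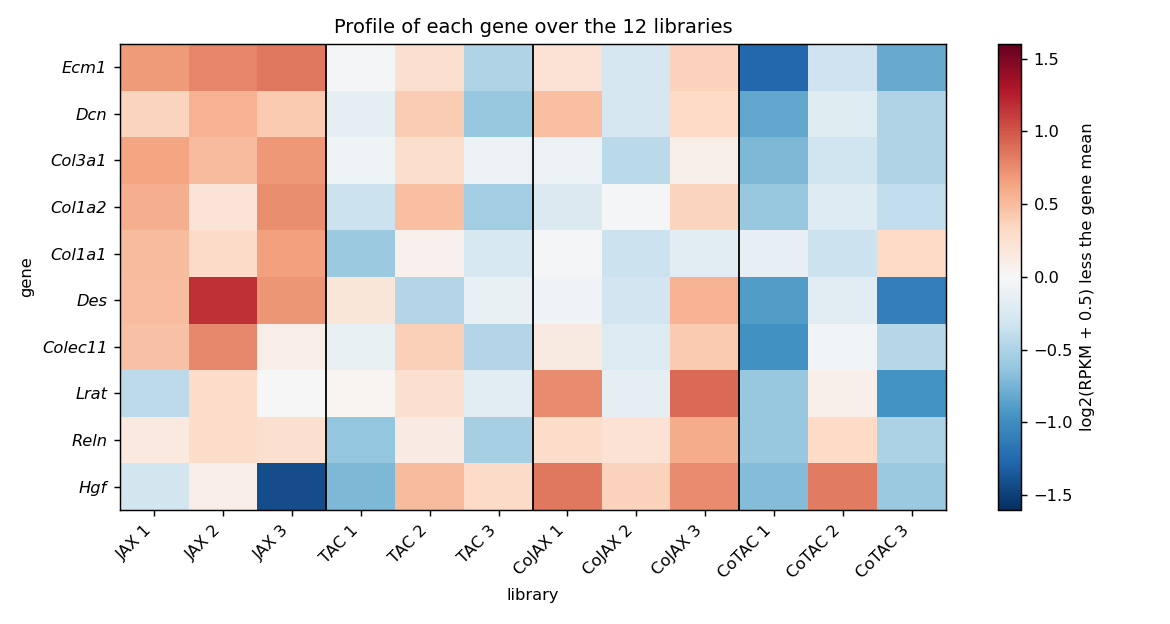
Level of each of the 10 genes in each of the 12 libraries as log2(RPKM + 0.5) less the mean of the gene, red for above and blue for below. TAC 2 and CoTAC 2 stand above the other libraries of their groups for 9 genes each, and CoJAX 2 below for 9.

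The same libraries stood out for most of 17 other genes of stellate cells. The platelet-derived growth factor receptor gene Pdgfrb of that list departed in part, being highest in TAC 1 and CoTAC 3. The transcription factor gene Hand2 was highest in TAC 2 and CoTAC 2 but lowest in CoJAX 1. TAC 2 was highest for 15 of the 17, CoTAC 2 highest for 13, CoJAX 2 lowest for 14 and CoJAX 3 highest for 14. The median deviation of these 17 genes from their means was -0.32, 0.34 and -0.24 in TAC 1 to 3 on the log2 scale, beside -0.14, 0.27 and -0.36 for the 10 genes. In CoTAC it was -0.61, 0.00 and -0.23, beside -0.71, -0.19 and -0.50.

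Markers of the cells around them shared this pattern in part. Of 12 markers of sinusoidal endothelial cells, CoTAC 2 was highest for 12 and CoJAX 2 lowest for 10, but TAC 2 was lowest for 10. Of 12 markers of Kupffer cells, the resident macrophages of the liver, TAC 2 was highest for 11, CoJAX 2 lowest for 11 and CoJAX 3 highest for 11, but CoTAC 3 was highest for 9. Within JAX the endothelial and Kupffer markers were highest in JAX 1 (11 and 12 of 12), where none of the 10 genes had its highest value. Among the TAC libraries, then, stellate and Kupffer genes were mostly highest in TAC 2 and endothelial genes mostly lowest there. The median deviation of the endothelial markers in TAC 2 was -0.07, close to their mean over the 12 libraries. The part of these libraries' cell content in the differences between groups was not tested.

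**Figure D4:**
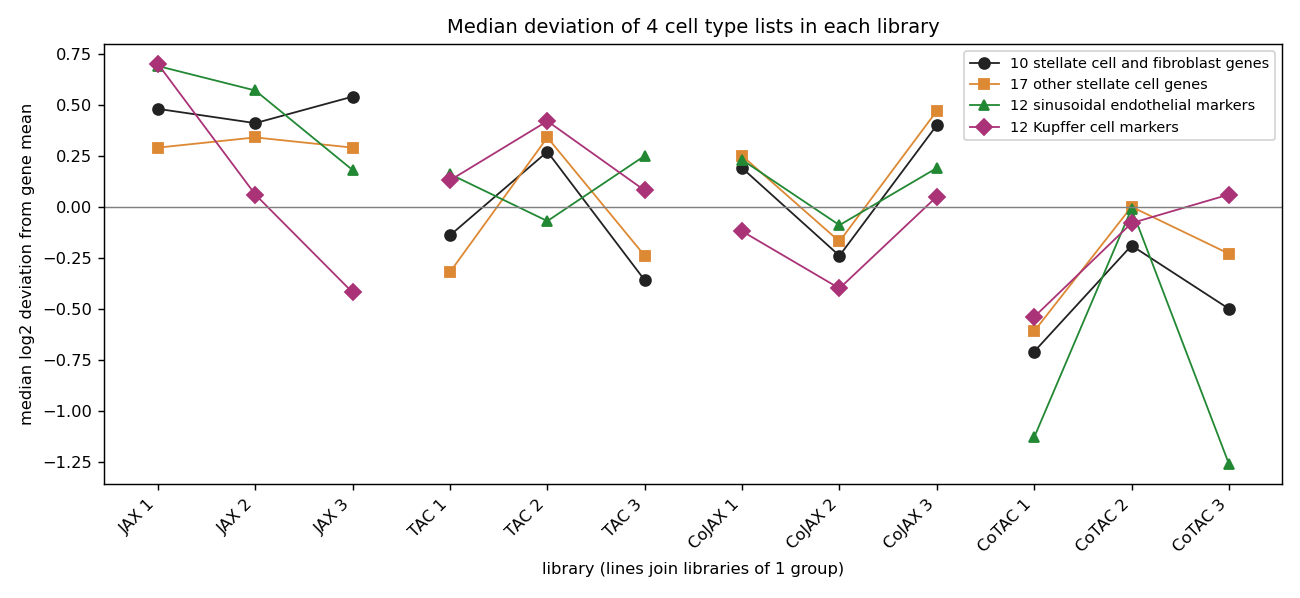
Median over each list of the log2 deviation from each gene's own mean (vertical axis), in each library, for the 10 genes, 17 other stellate cell genes, 12 sinusoidal endothelial markers and 12 Kupffer cell markers. Among the TAC libraries, the 10 genes and the other stellate cell genes are both highest in TAC 2, at 0.27 and 0.34, where the endothelial markers stand at -0.07. Over all 12 libraries the 10 genes are highest in JAX 3 (0.54) and the other stellate cell genes in CoJAX 3 (0.47).

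Ratios between the genes within a library do not depend on the library's scaling. They do carry the trend with gene length, which moved with the groups, where the 2 genes differ in length. Ecm1 (1900 bases) and Lrat (5351 bases) are such a pair, as are Hgf (3468 bases) and Col3a1 (5564 bases). The part of that trend in the ratios was not tested. Ecm1 stood at 34.6 to 56.3 times the level of Lrat in JAX and at 16.4 to 23.7 times in CoJAX, ranges that do not overlap. TAC, at 20.7 to 24.7 times, and CoTAC, at 17.1 to 31.8 times, also lay apart from JAX. The ratio of Lrat to Col3a1 was 0.235 to 0.451 in JAX, 0.487 to 0.562 in TAC and 0.636 to 0.993 in CoJAX, so that TAC and CoJAX both lay above JAX. CoTAC, at 0.336 to 0.7, overlapped JAX. The ratio of Hgf to Col3a1 was 0.0207 to 0.159 in JAX, 0.105 to 0.296 in TAC and 0.377 to 0.46 in CoJAX, and here TAC overlapped JAX. The lowest JAX ratio is that of JAX 3, where Hgf stood at 0.25 RPKM. CoTAC, at 0.165 to 0.537, lay above JAX and spanned the CoJAX range. The ratio of Ecm1 to Dcn ran from 1.33 to 1.53 in JAX and from 0.851 to 1.04 in CoTAC. Col1a1 to Col1a2, chains of the same collagen, ran from 0.574 to 0.659 in JAX and from 0.525 to 1.06 in CoTAC. It ran from 0.44 to 0.756 in TAC and 0.394 to 0.705 in CoJAX.

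Likeness of profile was measured as the root mean square difference between centred log2 profiles over the 12 libraries, given as a description. The genes nearest to Ecm1 were Angptl6 at 0.16, Anxa2 at 0.18 and Sod3 at 0.21, of which Angptl6 and Sod3 are in the list of other stellate cell genes. Dcn and Colec11 were each the third nearest of the other, at 0.17, and both had Plvap, a gene of fenestrated endothelium, and Pam among their nearest. Reln was nearest to Tgfbi (0.18), Sh2d4a (0.19) and Gdf2 (0.20), the last of them a stellate cell ligand of the BMP family. Hgf had Acss2os at 0.26, Rgs5, a gene of pericytes and stellate cells, at 0.31 and the ligand gene Bmp5 at 0.34. Lrat was nearest to Gpr124 and Rerg (0.23 each) and Slc22a28 (0.28), and Des to Elk3 (0.18), the small proteoglycan gene Ogn (0.21) and Arrb1 (0.23). For the collagens the nearest were Fahd2a, Gstm4 and Supt3 for Col3a1 (0.13 to 0.15), Nck2, Sema6c and Tgfbi for Col1a2 (0.20 to 0.23) and Nup37, Rab17 and Serinc2 for Col1a1 (0.19 to 0.20). Col3a1 was the 9th nearest gene to Col1a2, at 0.24.

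Of the 17 other stellate cell genes, Cygb, the globin gene of quiescent stellate cells, was lower in 3 comparisons. It stood at 9.78, 9.79 and 14.3 RPKM in JAX, 5.74, 4.74 and 5.20 RPKM in TAC and 7.39, 5.82 and 6.94 RPKM in CoJAX, and fell by 1.02 ± 0.22 in TAC against JAX (adjusted p = 0.0325) and by 0.69 in CoJAX against JAX (adjusted p = 0.0399). It was also lower in the vendor average (-0.69, adjusted p = 0.0419). Steap4, a metalloreductase gene, was at 34.1 ± 1.49 RPKM in JAX and 72.5 ± 2.92 RPKM in CoJAX and rose by 1.08 ± 0.30 (adjusted p = 0.0251). Its means were also above JAX in TAC, at 62.7 RPKM, and in CoTAC, at 127 RPKM. No other gene of that list was called. Its median difference was -0.40 in TAC against JAX, -0.10 in CoJAX against JAX, -0.20 in CoTAC against TAC and -0.51 in CoTAC against CoJAX. Gfap, another stellate cell gene, was at 0 to 0.485 RPKM and was not tested. Calls in this list and those below stand beside shares of all genes called. These were 4.09% in TAC against JAX, 24.1% in CoJAX against JAX, 0.647% in CoTAC against TAC and 3.47% in the vendor average. With depth as a covariate they were 1.09% in TAC against JAX and 0.323% in CoJAX against JAX. Calls of genes outside the 10 were not followed under other settings.

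Of 11 tested genes of activated, contractile cells, Tpm2 (tropomyosin) and Vim (vimentin) were called, both lower. Tpm2 was at 14.4 ± 3.90 RPKM in JAX, 5.02 ± 1.76 in TAC, 7.77 ± 3.47 in CoJAX and 2.41 ± 0.331 in CoTAC, and fell by 1.45 in TAC against JAX (adjusted p = 0.0368) and by 1.44 in the vendor average (adjusted p = 0.0133). Vim was at 33.6 ± 2.63 RPKM in JAX and 18.9 ± 4.33 RPKM in CoJAX and fell by 0.83 (adjusted p = 0.0131). Its means were also below JAX in TAC, at 21.2 RPKM, and in CoTAC, at 14.3 RPKM. Acta2, the smooth muscle actin gene used to mark activated stellate cells, was at 3.68, 4.44 and 4.78 RPKM in TAC and 1.28, 1.80 and 1.23 RPKM in CoTAC, a difference of -1.32 that did not pass (adjusted p = 0.0527). In that comparison 7 of the 11 genes were lower without overlap, against 12.2% of all genes.

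Among 18 tested genes of other matrix proteins, Mgp, the matrix Gla protein gene, had the largest called difference. It was at 22.4, 22.2 and 23.3 RPKM in JAX, 4.46, 10.1 and 5.38 RPKM in TAC, 10.8, 12.1 and 11.9 RPKM in CoJAX and 6.35, 3.85 and 1.48 RPKM in CoTAC, and fell by 1.78 in TAC against JAX (adjusted p = 0.0321) and by 1.71 in the vendor average (adjusted p = 0.0108). Col6a1, a type VI collagen chain, fell by 1.0 in TAC against JAX (adjusted p = 0.0285). In the vendor average 5 of the 18 were lower, against 1.93% of all genes (among them Mgp, Col6a1 and the collagen-binding glycoprotein gene Sparc) and Col4a2, a basement membrane collagen, was higher by 0.77 (adjusted p = 0.0301). The fibronectin gene Fn1, which hepatocytes also express, rose by 0.82 in CoJAX against JAX (adjusted p = 0.0169). Its means were 95.1 RPKM in JAX, 152 RPKM in TAC, 171 RPKM in CoJAX and 220 RPKM in CoTAC.

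Genes that process collagen were called in single cases. Of 14 tested, the glycosyltransferase gene Glt25d1 and the procollagen protease gene Bmp1 rose by 0.80 and 0.41 in CoJAX against JAX (adjusted p = 0.0082 and 0.0314), 2 of 14 in a comparison where 24.1% of all genes were called. P4ha1, a prolyl hydroxylase subunit gene, fell by 1.52 in CoTAC against TAC (adjusted p = 0.0197). Among 8 tested genes of matrix turnover, the metalloprotease gene Mmp19 was at 11.6, 13.4 and 13.2 RPKM in JAX, 20.2, 32.6 and 33.6 RPKM in TAC and 26.9, 27.8 and 33.8 RPKM in CoJAX. It rose by 1.12 in TAC against JAX (adjusted p = 0.0184) and by 1.18 in CoJAX against JAX (adjusted p = 0.00446). In the vendor average Mmp19 was higher (0.60, adjusted p = 0.0314) and the metalloprotease inhibitor gene Timp2 lower (-0.55, adjusted p = 0.0409).

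Signals that act on or from stellate cells were mostly not called. Of 11 tested genes of TGF-beta signalling, Tgfb1 fell by 0.66 (adjusted p = 0.0453) and Smad4 rose by 0.60 (adjusted p = 0.0129) in CoJAX against JAX. In that comparison 24.1% of all genes were called. Ltbp4 was lower in the vendor average (-0.84, adjusted p = 0.0463), where 3.47% of all genes were called. Of 5 tested genes for HGF activation and its receptor, only Spint2, a protease inhibitor gene, was called. It was lower by 0.56 in CoJAX against JAX (adjusted p = 0.0167), where 24.1% of all genes were called. The receptor gene Met was at 14.4, 15.8 and 18.9 RPKM in TAC and 27.1, 21.4 and 22.5 RPKM in CoTAC, a difference of 0.52 ± 0.14 that did not pass (adjusted p = 0.0934). The reelin receptor genes Vldlr and Lrp8 and the adaptor gene Dab1 were all below the filter, at most 0.459 RPKM. Of 9 tested retinoid genes, the esterase gene Ces1g was lower in the vendor average (-0.47, adjusted p = 0.0351), against 3.47% of all genes called. Of 5 tested genes of the lectin complement pathway, the protease gene Masp1, whose product works with Colec11, rose by 2.15 in CoJAX against JAX (adjusted p = 0.00783), from 7.60 ± 2.24 to 36.2 ± 14.7 RPKM. There too 24.1% of all genes were called. Masp1 also had means above JAX in TAC, at 27.7 RPKM, and in CoTAC, at 49.1 RPKM. Its rise in TAC against JAX, 1.64, did not pass by limma (adjusted p = 0.0536).

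Summed levels of other cell types moved with the groups too. The 12 endothelial markers summed to 276 to 398 RPKM in JAX and to 94.1 to 238 RPKM in CoTAC, and 12 of 12 had negative vendor averages, Stab1 (-0.67, adjusted p = 0.0426) and Eng (-0.63, adjusted p = 0.0474) being called. The 10 stellate and fibroblast genes summed to 353 to 398 RPKM in JAX and 124 to 216 RPKM in CoTAC. Ecm1, Dcn and Colec11 were the largest parts of that sum, with JAX means of 162, 113 and 62.3 RPKM. The 18 other stellate cell genes in the table did not follow, at 240 to 258 RPKM in JAX and 211 to 309 RPKM in CoTAC, with overlap. Steap4 alone had means of 34.1 RPKM in JAX and 127 RPKM in CoTAC in that sum. The 12 Kupffer markers summed to 420 to 845 RPKM in JAX and 397 to 567 RPKM in CoTAC, with overlap. None of them was called by limma in any comparison, and at an unadjusted p under 0.05 the most were the 3 that were lower in CoJAX against JAX and the 3 that differed in CoTAC against TAC. Portal fibroblast and mesothelial markers summed to 17.3 to 19.2 RPKM in JAX and 7.64 to 10.5 RPKM in CoTAC, with 0 of 6 tested called by limma in the vendor average (1 lower at an unadjusted p under 0.05). Hepatocyte markers summed to 4190 to 5200 RPKM in JAX and 2840 to 3350 RPKM in CoTAC. That sum holds Alb, whose RPKM fell as depth rose, and the JAX libraries were shallower than the CoTAC libraries. The sum is therefore not read as a level of hepatocyte RNA. Single markers went either way. Of the 8, 3 were called higher (Apob at 1.13 and Cps1 at 0.82 among them) and 1 lower in CoJAX against JAX, where 24.1% of all genes were called. Cps1 was called higher in TAC against JAX (0.69), where 4.09% of all genes were called. Bile duct and leukocyte markers were low, at most 17.4 and 17.5 RPKM in sum, with Cldn7 and Cd79a called lower in the vendor average. The part of these shifts in the values of the 10 genes was not tested.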

How the data were processed

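Liver mRNA was selected with oligo(dT) beads and made into libraries with a ThruPLEX kit, per the labels' protocols. The authors deposited 1 table of RPKM values with a column for each of 12 libraries; the submitters' processing notes list Bowtie 1.0.0, Cuffdiff 2.1.1 and mm9 with no roles. Neither strand nor annotation is given in the sources used here, so overlapping genes cannot be told apart. Of 23936 named lines, 27 with spreadsheet dates were left out. The 12058 genes that reached 1 RPKM in 3 or more libraries were tested by limma-trend (limma 3.58.1, R 4.3.3) on log2(RPKM + 0.5), in 1 model over 4 groups, with two-sided p-values adjusted by Benjamini-Hochberg across every gene tested. Steps between low RPKM values gave the relative depth of each library. Whole reads, within 0.02 of a read, came back for 72.6% of tested genes and for 7 of the 10 (all but Ecm1, Dcn and Hgf); no count test was run on them. On simulated data for TAC against JAX (12058 genes, 200 changed), 55% of genes changed by 1 and 93% of those changed by 2 on the log2 scale were recovered, with 10 false calls. The 10 genes and all other lists were chosen with earlier results of these data known. All 10 genes were named in every comparison; of other lists up to 4 called genes with the smallest p per comparison, else the 2 with the smallest p, could be named, and the cell markers Gfap, Pdgfrb and Hand2 were named for their known roles. Alternatives changed the pseudocount, filter, scaling, depth, length, groups fitted, replicate block and libraries included.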

Additional observations from a re-analysis of the deposited data

How the results depend on the processing

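The number of the 10 genes called was unchanged under pseudocounts of 0.1 and 1, no filter and median-ratio scaling. In CoJAX against JAX the main count of 1 became 0 with depth as a covariate, 2 with the length slope removed (Col1a1 added) and 2 with only the groups compared in the fit (Ecm1 added). In the vendor average the main count of 1 became 3 with quantile normalization (Col3a1 and Des added), 0 with depth as a covariate and 3 with the length slope removed (Reln and Col3a1 added). Leaving out 1 library at a time gave counts of 0 to 1 in TAC against JAX, 0 to 2 in CoJAX against JAX, 0 to 1 in CoTAC against TAC, 0 to 1 in CoTAC against CoJAX, 0 to 5 in the vendor average and 0 in the interaction.

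Small differences turned sign: with the length slope removed Lrat was -0.06 in TAC against JAX, Reln -0.17 in CoJAX against JAX and -0.25 in CoTAC against TAC, and Col1a1 -0.04 in CoTAC against CoJAX, and with depth as a covariate Reln was -0.03 in CoTAC against TAC. Without 1 library the ranges that crossed 0 were -0.11 to 0.24 for Lrat in TAC against JAX, -0.22 to 0.31 for Reln, -0.47 to 0.05 for Col1a2 and -0.67 to 0.09 for Hgf in CoTAC against TAC, -0.06 to 0.27 for Col1a1 in CoTAC against CoJAX and -0.37 to 0.07 for Hgf in the vendor average. In the interaction they were -0.14 to 0.38 for Des, -0.31 to 0.15 for Colec11, -0.30 to 0.16 for Ecm1, -0.36 to 0.17 for Reln and -0.36 to 0.15 for Dcn. The cause was not tested.

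Over all genes the number called moved far more, from 13 to 810 over the other settings in TAC against JAX, 39 to 3015 in CoJAX against JAX, 1 to 98 in CoTAC against TAC and 72 to 596 in the vendor average. Without 1 library it ran from 11 to 2113, 1264 to 3431, 2 to 1530 and 44 to 1905 in these comparisons. The shares of all genes called that stand beside the counts of the 10 genes rest on these numbers and move with them. Same-numbered libraries did not deviate together (18 pairs, r -0.17 to 0.15, 1 over 0.1), while pairs with other numbers ran from -0.25 to 0.24. These values show no pairing by number but cannot exclude one, since the labels give no cage or animal number. With replicate number as a block, 0 of the 10 genes were called in the vendor average (Ecm1 at an adjusted p of 0.059) and 1, Col3a1, in CoJAX against JAX (0.0284).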
